A study of Mus musculus with 6 samples.

Results

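The S6 kinase and mTOR pathway genes are 9 genes of the signalling route that couples nutrients and growth factors to protein synthesis, and they were followed here in the cortex of mouse embryos that lacked the RNA-binding proteins Sam68 and SLM2. The members were found by their gene symbols: the S6 kinase genes *Rps6kb1* and *Rps6kb2*, the kinase gene *Mtor*, its partners *Rptor* and *Rictor*, the upstream regulators *Tsc1*, *Tsc2* and *Rheb*, and the translation repressor gene *Eif4ebp2*. Each symbol matched 1 feature, giving 9 of the 59484 features of the table, of which 23505 carry a symbol. The features without a symbol that lie inside *Rps6kb1* and *Mtor*, 4 in all, were examined as well.

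PolyA-selected RNA was sequenced from the cortex at embryonic day 18.5 (E18.5) of 3 wild-type and 3 *Sam68:Slm2* double knockout (dKO) embryos of C57BL/6 mice. The dKO embryos carried germline knockout alleles of *Khdrbs1* (Sam68) and *Khdrbs3* (SLM2), present in every cell. They came from matings of parents that were heterozygous for Sam68 and homozygous knockout for Slm2. They differed from wild-type at both genes, and no single knockout was sequenced. Such matings give no wild-type embryos, so the wild-type embryos had other parents, and genotype cannot be told apart from parents and litter. Values are normalized counts, that is, read counts divided by a size factor of each library, and the libraries held between 31837922 and 40896541 reads, so that 1 read was worth between 0.877 and 1.16 normalized counts. The labels do not say whether each library came from a separate litter or from pooled embryos, and *P*-values measure the spread between these libraries. *Khdrbs1* kept 1.86% of its wild-type level in dKO cortex (log2 fold change -5.78, adjusted *P* = 1.08e-07) and *Khdrbs3* kept 48.1% (log2 fold change -1.05, adjusted *P* = 0.000855, both limma). A whole-gene count does not show which exons of *Khdrbs3* the remaining reads cover. All 9 markers of cortical excitatory neurons were detected in every library.

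mTOR is a serine/threonine kinase that works in a pair of complexes: with Raptor it forms a complex that responds to amino acids and growth factors and phosphorylates the S6 kinases and the 4E-BPs, and with Rictor it forms a complex that phosphorylates AKT. The GTPase Rheb switches the Raptor complex on, and the proteins of the tuberous sclerosis complex, encoded by *Tsc1* and *Tsc2*, switch Rheb off. In the developing cortex this route sets cell size, progenitor growth and neuronal maturation, and loss of the tuberous sclerosis genes is known for cortical malformation. Sam68 is known from work on fat cells to bind the pre-mRNAs of *Mtor* and *Rps6kb1* and to affect whether an early *Mtor* intron is kept and whether a short *Rps6kb1* transcript is made, so the question put to these data was whether the whole-gene levels of these genes, or of unnamed features inside them, differed when Sam68 and SLM2 were both absent.

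The stretches below show where the short annotated transcripts of both genes part from the full-length ones, because these are the places that a whole-gene count cannot see. Each begins with the last 15 bases of the exon that both transcripts share, in lower case. It goes on in capitals with the bases that come next in that transcript. All are taken from the GENCODE M21 transcripts on GRCm38 (mm10), written along the transcript. *Mtor* lies on the plus strand, and the full-length Mtor-202 has 58 exons and 8564 bases. Its capitals are the first 66 bases of exon 6, at chr4:148455985-148456050. Mtor-201 has 5 exons and 1003 bases, runs from exon 5 straight into the intron, and its capitals at chr4:148454753-148454818 end at the TAG stop codon.
Mtor-202: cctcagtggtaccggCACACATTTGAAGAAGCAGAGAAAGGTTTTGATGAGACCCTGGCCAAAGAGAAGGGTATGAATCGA
Mtor-201: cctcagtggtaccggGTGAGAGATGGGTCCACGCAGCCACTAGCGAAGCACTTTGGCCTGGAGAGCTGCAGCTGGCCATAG

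*Rps6kb1* lies on the minus strand. Rps6kb1-207, the longest transcript, has 15 exons and 5531 bases, and its capitals are the first 43 bases of exon 7 at chr11:86516149-86516191. Rps6kb1-202 has 10 exons and 3250 bases, and its capitals are its whole exon 7, of 43 bases, at chr11:86517350-86517392. Its exons 8 (99 bases) and 9 (244 bases) are likewise not in Rps6kb1-207. Its exon 10, at chr11:86513983-86516191, begins at the same base as exon 7 of Rps6kb1-207. The 43 bases in capitals of Rps6kb1-207 are therefore also in Rps6kb1-202, after these added exons. None of the features without a symbol overlaps any of the 4 stretches in capitals, so the deposited values hold no separate measurement of either splicing choice.
Rps6kb1-207: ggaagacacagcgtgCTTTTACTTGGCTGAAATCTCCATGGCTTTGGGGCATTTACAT
Rps6kb1-202: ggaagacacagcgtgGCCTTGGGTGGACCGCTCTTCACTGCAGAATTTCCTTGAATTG

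Of the 9 members, none had a whole-gene level that differed between dKO and wild-type cortex past an adjusted *P* of 0.05. The test was limma on log2(normalized count + 1) over 18970 features, of which 19 (0.1%) passed. edgeR and DESeq2, run on the whole reads recovered from the values, also called 0 of the 9. At an unadjusted *P* under 0.05, 1 of the 9 passed, *Eif4ebp2*, against a background of 11.5% of all tested features (4.92% higher and 6.58% lower in dKO). In every member the values of the 2 genotypes overlapped, while 16.4% of all tested features had genotypes that did not. The log2 fold change was above 0 for 8 members and below 0 for 1, and its median was 0.08, beside 0.00 over all tested features. The widest 95% interval on the high side ended at a log2 fold change of 0.49 (*Rictor*, 1.41-fold) and the lowest bound was -0.38 (*Rps6kb2*, 0.768-fold), so that for each of the 9 genes a whole-gene change of 1.5-fold lay outside its interval.

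**Figure D1:**
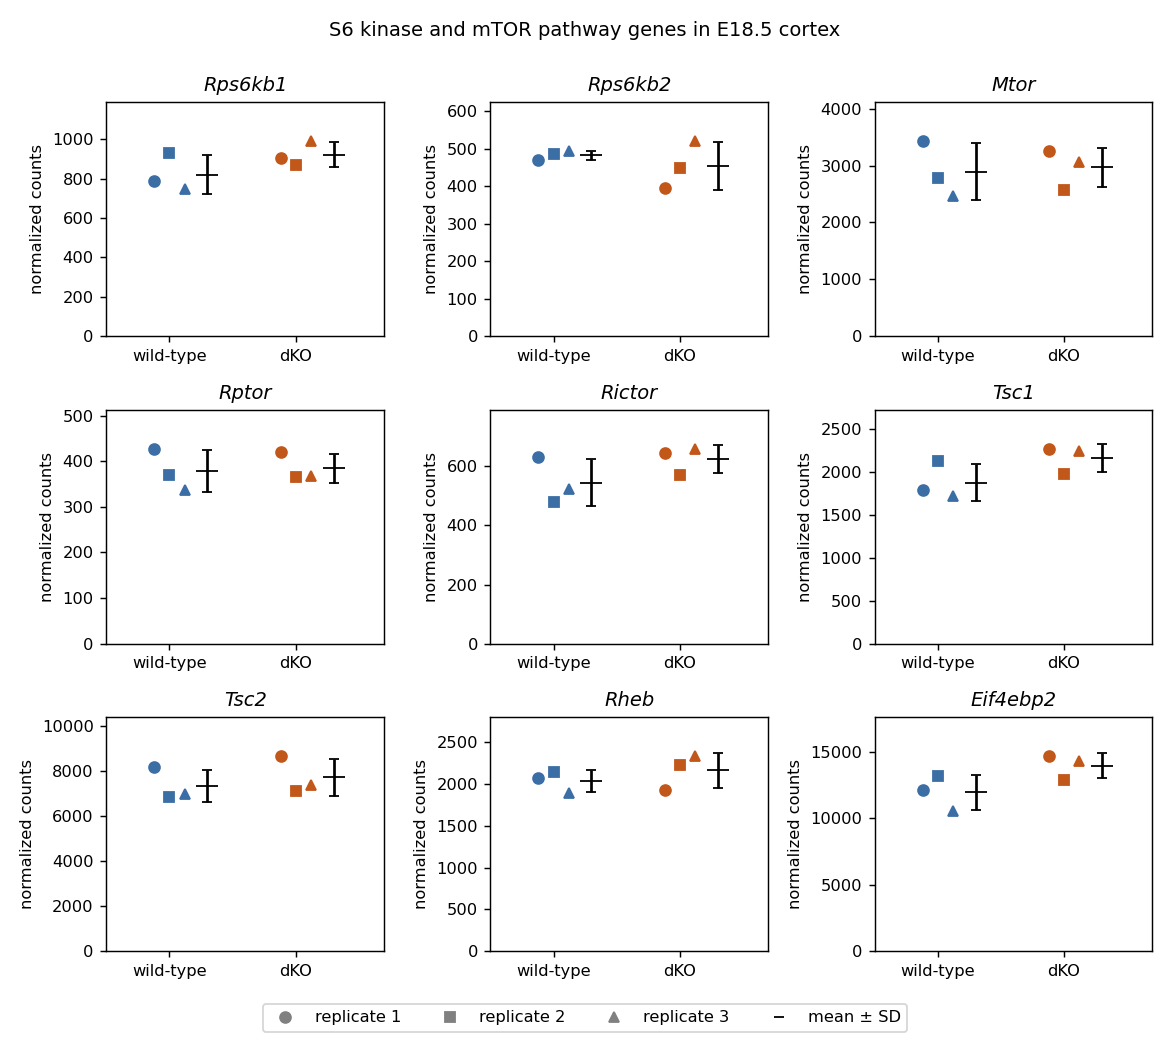
Normalized counts of the 9 members in each library (y axes start at 0; blue points wild-type, orange points dKO, 1 point per library with its replicate number as the symbol; black bars give the mean ± SD of 3). In all 9 panels the points of the 2 genotypes overlap, and the means lie closest for *Rptor* (378 and 385) and *Mtor* (2896 and 2969).

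*Rps6kb1* encodes S6K1, the kinase that phosphorylates ribosomal protein S6 and several translation factors (GSMG0007162, chr11:86499009-86544807, minus strand). It had normalized counts of 786, 931 and 745 in the wild-type libraries 1 to 3 and 905, 869 and 992 in the dKO libraries 1 to 3. Wild-type library 2 stood above 2 of the 3 dKO libraries, and the other wild-type libraries stood below all 3. The means were 821 ± 97.9 and 922 ± 63.1 (SD, n = 3 each), and the log2 fold change was 0.17 (SE 0.11, 95% interval -0.08 to 0.42, limma adjusted *P* = 0.573). Without wild-type library 2 it was 0.27 and its unadjusted limma *P* fell to 0.039, with an adjusted *P* of 0.321.

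*Rps6kb2* encodes the related kinase S6K2 (GSMG0019925, chr19:4153991-4163383, minus strand). Its wild-type libraries lay close together, at 470, 485 and 493 normalized counts, while the dKO libraries spread from 394 through 449 to 521. The dKO range enclosed all 3 wild-type values. With means of 483 ± 11.7 and 454 ± 63.7 (SD, n = 3 each), it was the only member with a negative log2 fold change (-0.10, SE 0.13, adjusted *P* = 0.793, limma), and that value was 0.00 without dKO library 1. Its annotated 3′ end meets *Coro1b* and its longest transcript runs on through *Ptprcap*, both on the other strand, and the strand setting of the counting is not given in the sources used here.

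The balance of the S6 kinase genes was expressed as the log2 ratio of their normalized counts. It was 0.74, 0.94 and 0.60 in wild-type and 1.20, 0.95 and 0.93 in dKO cortex. Wild-type library 2 again lay inside the dKO range. The difference of the means was 0.27 (0.76 ± 0.17 against 1.03 ± 0.15; exact two-sided permutation *P* = 0.2, or 0.3 adjusted over the 6 ratios examined). With 3 against 3 libraries, such a test cannot go below 0.1.

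*Mtor* had the widest spread among wild-type libraries of any member, with a coefficient of variation of 17.2% (GSMG0027382, chr4:148448582-148557684, plus strand, 18.7 Mb from *Khdrbs1*). Its normalized counts were 3437, 2791 and 2459 in wild-type and 3258, 2580 and 3070 in dKO cortex. The highest and the lowest of the 6 values were both wild-type. The means of 2896 ± 497 and 2969 ± 350 (SD, n = 3 each) gave a log2 fold change of 0.04 (SE 0.13, 95% interval -0.24 to 0.33, adjusted *P* = 0.920, limma). Counting error was small beside this spread, since the lowest library held 2467 reads of *Mtor*, or 2.01% of relative error.

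*Rptor* encodes Raptor, the scaffold that brings S6 kinases and 4E-BPs to mTOR (chr11:119602904-119899590). It had 428, 371 and 337 normalized counts in wild-type and 421, 365 and 368 in dKO cortex, nearly the same range, and a log2 fold change of 0.03 (SE 0.14, adjusted *P* = 0.954, limma). *Rictor*, the scaffold of the other mTOR complex (chr15:6708378-6800398), had 632, 478 and 523 in wild-type and 643, 572 and 660 in dKO cortex. Only wild-type library 1 reached the dKO range. Its log2 fold change was 0.21 (SE 0.13, 95% interval -0.08 to 0.49, adjusted *P* = 0.558, limma). The log2 ratio of *Rictor* to *Rptor* was 0.52 ± 0.14 in wild-type and 0.70 ± 0.12 in dKO cortex, and the genotypes overlapped (exact permutation *P* = 0.2, adjusted 0.3).

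*Tsc1* encodes hamartin, which stabilises the complex that restrains Rheb (chr2:28641233-28691172). It had 1789, 2127 and 1717 normalized counts in wild-type and 2275, 1981 and 2243 in dKO cortex. As for *Rps6kb1*, wild-type library 2 was the only wild-type library within the dKO range. The means were 1877 ± 219 and 2166 ± 162 (SD, n = 3 each), and the log2 fold change was 0.21 (SE 0.10, 95% interval -0.02 to 0.44, unadjusted *P* = 0.0658, adjusted *P* = 0.466, limma).

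*Tsc2* encodes tuberin, the subunit that makes Rheb hydrolyse its GTP (chr17:24595816-24632629). It was the second most abundant member by normalized counts, with 8185, 6881 and 7017 in wild-type and 8678, 7120 and 7392 in dKO cortex. Its library 1 was the highest in each genotype, and the log2 fold change was 0.07 (SE 0.10, adjusted *P* = 0.808, limma). The 3′ end of *Tsc2* overlaps *Pkd1* on the other strand. The log2 ratio of *Tsc1* to *Tsc2* was -1.97 ± 0.25 in wild-type and -1.83 ± 0.11 in dKO cortex (exact permutation *P* = 0.5, adjusted 0.6).

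*Rheb*, the GTPase that activates mTOR, had 2074, 2145 and 1893 normalized counts in wild-type and 1927, 2230 and 2330 in dKO cortex (chr5:24802823-24842414). The lowest dKO library lay within the wild-type range and the other 2 above it. The log2 fold change was 0.08 (SE 0.10, 95% interval -0.13 to 0.30, adjusted *P* = 0.755, limma).

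*Eif4ebp2* encodes 4E-BP2, the main brain form of the repressor that holds the cap-binding protein eIF4E until mTOR phosphorylates it (chr10:61429597-61452787). It was the most abundant member, with 12114, 13144 and 10552 normalized counts in wild-type and 14664, 12899 and 14285 in dKO cortex. Wild-type library 2 exceeded dKO library 2, and all other pairs of libraries had the higher value in dKO. The means were 11937 ± 1305 and 13949 ± 929 (SD, n = 3 each), which gave 0.23 on the log2 scale (SE 0.09, 95% interval 0.02 to 0.44, unadjusted *P* = 0.0347), which did not pass adjustment (adjusted *P* = 0.400, limma). Over the alternative analyses the adjusted *P* of *Eif4ebp2* ran from 0.210 to 0.782. Its paralog *Eif4ebp1* was far lower, at 176 ± 15.3 in wild-type and 163 ± 22.8 in dKO cortex (log2 fold change -0.12, adjusted *P* = 0.817). The log2 ratio of *Eif4ebp2* to *Eif4ebp1* was 6.08 ± 0.28 in wild-type and 6.42 ± 0.18 in dKO cortex, with overlap (exact permutation *P* = 0.2, adjusted 0.3).

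**Figure D2:**
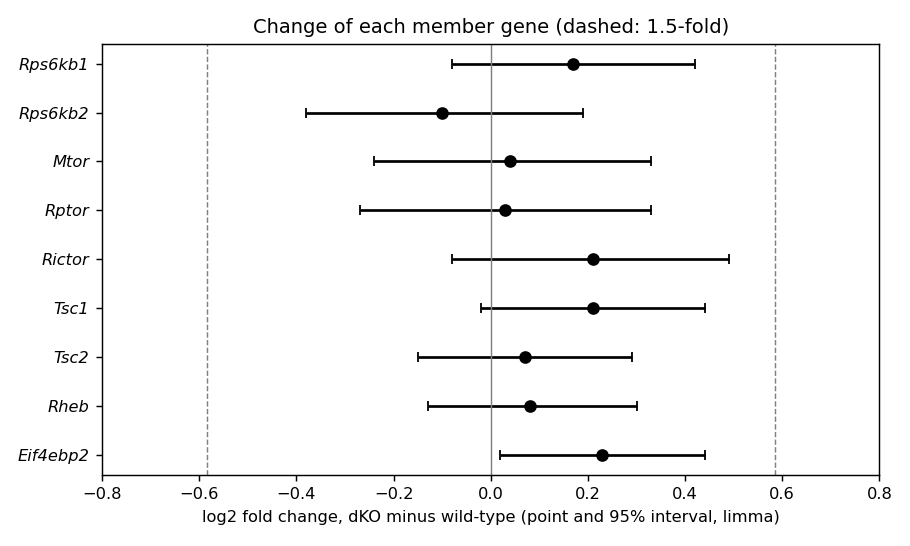
Log2 fold change (dKO minus wild-type, x axis) of the 9 members with its 95% interval from limma; the dashed lines mark a 1.5-fold difference in either direction. The interval of *Eif4ebp2* (0.02 to 0.44) starts just above 0, the other 8 include 0, and none reaches a dashed line.

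Levels were compared between genes per kb of the longest annotated transcript. In wild-type cortex *Eif4ebp2* led with 2064 normalized counts per kb. *Tsc2* (1175) and *Rheb* (1142) followed, with ranges over the 6 libraries that overlapped each other. *Mtor* (338) and *Tsc1* (244) came next and overlapped likewise. *Rps6kb1* stood at 148 per kb and *Rps6kb2* at 105, without overlap, but the place of *Rps6kb2* depends on the transcript, since with Rps6kb2-202 (1409 bases) it stood at 343. The scaffold genes *Rictor* (58.5) and *Rptor* (57.4) were lowest and did not differ beyond their ranges. The order of the 9 genes by their means was the same in dKO cortex, from 2412 per kb for *Eif4ebp2* to 58.3 for *Rptor*.

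The members did not vary among libraries in one way. Within wild-type, library 1 was the highest for 4 members (*Mtor*, *Rptor*, *Rictor* and *Tsc2*), library 2 for 4 and library 3 for 1. Within dKO, library 1 was the highest for 5, library 3 for 4 and library 2 for 0. The libraries numbered 1 stood apart from the others over the whole table: across 13955 features, the deviation from a feature's mean ran with transcript length at a Spearman rho of 0.284 in wild-type library 1 and 0.342 in dKO library 1, and at -0.137 to -0.239 in the other 4. Features of a library share its RNA, depth and base composition, so these are descriptions. When the length trend of each library was removed, dKO library 3 was the highest for 7 of the 9 members, dKO library 1 for 2, and wild-type library 1 for 4. The log2 fold changes of *Tsc1* (0.23) and *Eif4ebp2* (0.27) then had unadjusted *P*-values of 0.0459 and 0.0135, and adjusted values of 0.316 and 0.210 (limma). In that fit the median log2 fold change over all 13955 features was 0.07, and 15.4% of them had an unadjusted *P* under 0.05. With both libraries numbered 1 left out, no member passed an unadjusted *P* of 0.05, beside 9.37% of all tested features. The part of these libraries in the member values was not tested further.

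**Figure D3:**
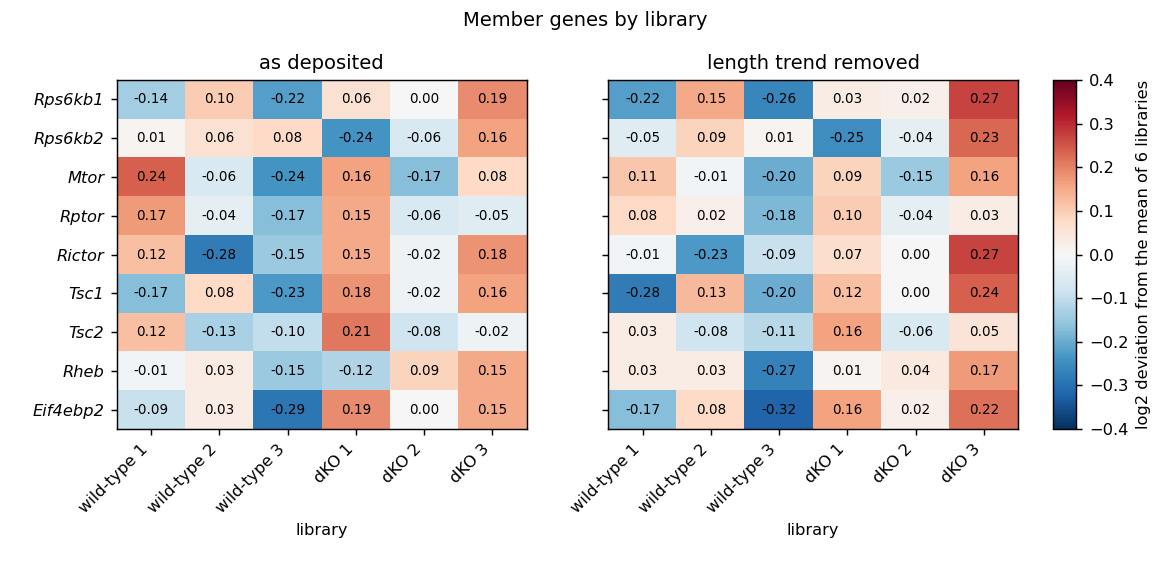
Log2 deviation of each member (rows) from its mean over the 6 libraries (columns), as deposited and after the length trend of each library was removed (colour and printed value). Wild-type library 3 is low for most members, and after the trend is removed dKO library 3 is the highest dKO library for 7 of 9.

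The features without a symbol inside *Rps6kb1* and *Mtor* carried almost no reads. The 3 inside *Rps6kb1* held 27 reads over the 6 libraries, beside 5226 reads of *Rps6kb1* itself, and the 1 inside *Mtor* held 2 reads beside 17721. None of the 4 reached the mean of 10 normalized counts needed for the test, and 1 was at 0 in every library, which allows up to 3 reads in each. GSMG0007163 (chr11:86540891-86543931, intron 1 of *Rps6kb1*) held 2, 6 and 12 reads in the wild-type and 0, 4 and 2 in the dKO libraries. These ranges overlap, and without the filter on low values the feature had an unadjusted *P* of 0.155 and an adjusted *P* of 0.705 (limma). GSMG0070265 (chr11:86538528-86538573, also intron 1) had 1 read, in wild-type library 1. GSMG0005707 (chr11:86506607-86507031, over exon 13) was the feature at 0. It holds 108 bases of annotated *Rps6kb1* exon, so its value depends on how reads over overlapping features were assigned. The sources used here do not give that rule, so its 0 does not show that the place was not transcribed. GSMG0027383 (chr4:148531133-148532340, intron 36 of *Mtor*) had its 2 reads in wild-type library 3. Whether any of these reads came from the host transcript was not tested. Over all 9 members, 14 unnamed features lay inside a member's span, with 61 reads in all, and 6 of them were at 0 in all libraries.

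The wider pathway was read from lists of known genes, 135 in all with the members included, of which 133 were matched and tested. None had an adjusted *P* under 0.05 in limma, edgeR or DESeq2. At an unadjusted *P* under 0.05, 14 genes passed in limma (10.5% of the 133, beside 11.5% of all features), 8 higher and 6 lower in dKO. The genotypes did not overlap in 21 genes (15.8%, beside 16.4%). Both shares were near those of the whole table. The median log2 fold change was 0.05 over the 133 genes, 0.07 over the 89 signalling genes and 0.01 over the 45 target genes of SREBP, ATF4 and TFEB, transcription programmes that mTOR is known to feed.

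Among the other subunits of the mTOR complexes, 1 of 9 genes of the list (*Mtor*, *Rptor* and *Rictor* included) passed the unadjusted test. That gene was *Deptor*, an inhibitory subunit of both complexes, with 93.2, 83.8 and 80.7 normalized counts in wild-type and 63.5, 46.0 and 48.7 in dKO cortex. All 3 dKO libraries were lower (log2 fold change -0.70, SE 0.24, adjusted *P* = 0.360, limma). The 9 genes ran from -0.70 (*Deptor*) to 0.21 (*Rictor*). The core subunit gene *Mlst8* had a log2 fold change of 0.04 and *Akt1s1*, which encodes the inhibitory subunit PRAS40, 0.05. In the list of the TSC complex and RHEB, 1 of 5 genes passed unadjusted: *Rhebl1*, a paralog of *Rheb*. It had 368, 351 and 347 normalized counts in wild-type and 465, 456 and 438 in dKO cortex, without overlap (log2 fold change 0.35, SE 0.11, adjusted *P* = 0.346, limma). All 5 genes of that list had a positive log2 fold change, with a median of 0.08.

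The list of S6 kinase and 4E-BP effectors also held genes of proteins that mTOR itself acts on, such as *Grb10* and *Tfeb*. Its median was the highest among the pathway lists, 0.15 over 13 genes. Of these, 4 (30.8%) passed the unadjusted test, all higher in dKO, beside 11.5% of all tested features in either direction and 4.92% higher in dKO. *Eef2*, the elongation factor that moves the ribosome along the mRNA, had 171999, 182290 and 180035 normalized counts in wild-type and 212430, 204247 and 219960 in dKO cortex. The genotypes did not overlap, and the log2 fold change was 0.25 (SE 0.07, adjusted *P* = 0.279, limma). *Eif4a1*, the helicase of the cap-binding complex, had a log2 fold change of 0.24 (SE 0.09, adjusted *P* = 0.376, limma), and *Grb10*, an adaptor that mTOR phosphorylates to damp insulin signalling, 0.25 (SE 0.09, adjusted *P* = 0.375, limma). The fourth was *Rps6*, the ribosomal protein that gives the S6 kinases their name, whose genotypes overlapped (log2 fold change 0.24, adjusted *P* = 0.402, limma). It was chosen after its values were seen. *Tfeb*, the lysosomal transcription factor that mTOR keeps in the cytoplasm, had the lowest log2 fold change of this list, -0.45, with an SE of 0.36 and overlapping genotypes (45.1 to 108 normalized counts in wild-type, 37.6 to 69.0 in dKO).

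**Figure D4:**
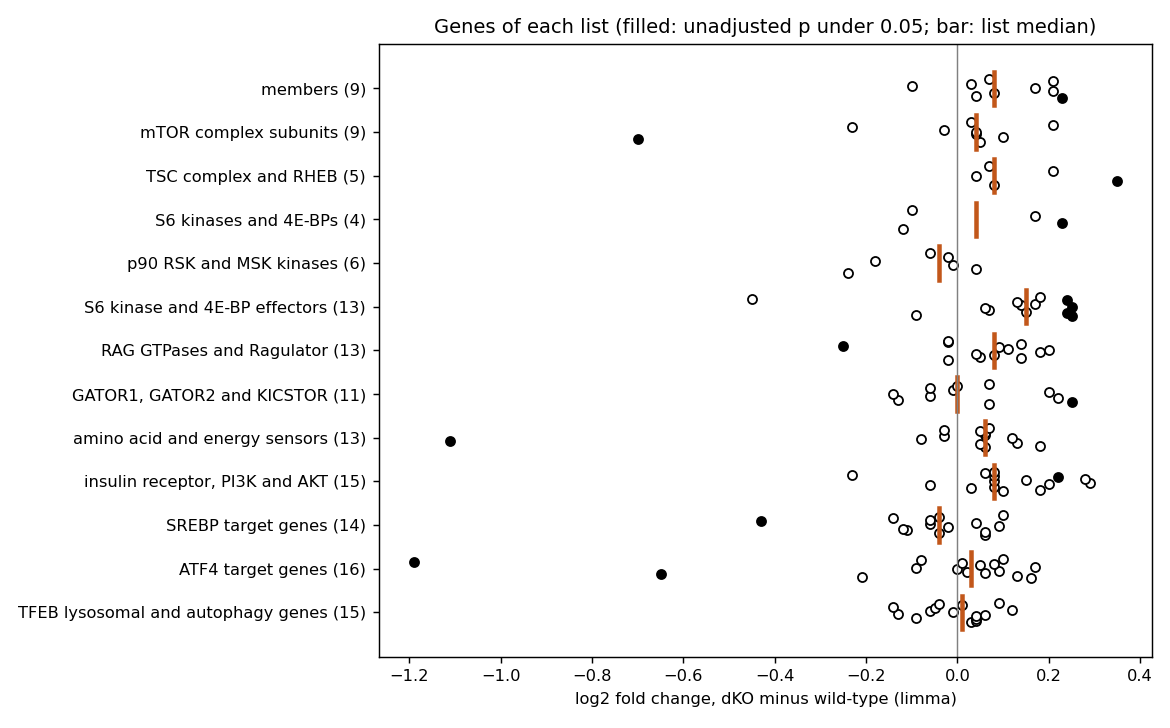
Log2 fold change (dKO minus wild-type, x axis) of each gene of the 13 pathway lists (rows, number of tested genes in parentheses); filled points have an unadjusted limma *P* under 0.05 and orange bars are list medians, and a gene of several lists appears in each. Most points lie within 0.3 of 0, and the points farthest out are *Slc7a11* (-1.19), *Gatsl3* (-1.11), *Deptor* (-0.70) and *Chac1* (-0.65), all lower in dKO, with no adjusted *P* under 0.05.

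In the arms that carry amino acid, energy and growth factor signals, 1 gene of each list passed the unadjusted test: 1 of 13 RAG and Ragulator genes (7.69%), 1 of 11 genes of GATOR1, GATOR2 and KICSTOR (9.09%), 1 of 13 amino acid and energy sensors (7.69%) and 1 of 15 genes of insulin receptor, PI3K and AKT signalling (6.67%). For lists of this size, 1 gene is about the number that the background of 11.5% gives. *Rragb*, a RAG GTPase gene, had a log2 fold change of -0.25 (adjusted *P* = 0.424, limma), with a lowest wild-type value of 1086 and a highest dKO value of 1085 that touch. *Itfg2*, a KICSTOR subunit gene, had 496, 505 and 479 normalized counts in wild-type and 584, 609 and 572 in dKO cortex (log2 fold change 0.25, SE 0.10, adjusted *P* = 0.399, limma). *Pik3ca*, the catalytic subunit gene of PI3K, had a log2 fold change of 0.22 (adjusted *P* = 0.423, limma). *Irs1* had the highest log2 fold change of the growth factor list (0.29, SE 0.16, adjusted *P* = 0.504) and *Pik3r1* the lowest (-0.23, SE 0.14, adjusted *P* = 0.553), both with overlapping genotypes. The sensor that passed was the CASTOR1 gene, listed as *Gatsl3*, with 48.5, 38.7 and 80.7 normalized counts in wild-type and 15.4, 37.6 and 24.4 in dKO cortex (log2 fold change -1.11, SE 0.41, adjusted *P* = 0.380, limma). It too was chosen after its values were seen, and its values are low. The ribosomal S6 kinases of the p90 RSK and MSK families, which share the S6 kinase name but not mTOR control, had 0 of 6 genes under an unadjusted *P* of 0.05. Their log2 fold changes ran from -0.24 (*Rps6ka1*) to 0.04 (*Rps6ka2*). The genotypes did not overlap in 2 of the 6 (33.3%), both lower in dKO, beside 16.4% of all tested features.

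Among the transcription programmes downstream, 1 of 14 SREBP targets, 2 of 16 ATF4 targets and 0 of 15 TFEB targets passed the unadjusted test, all lower in dKO. These 3 of 45 genes (6.67%) stand beside 11.5% of all tested features in either direction and 6.58% lower in dKO. That share is near the background. *Scd1*, a fatty acid desaturase gene, had 839, 677 and 714 normalized counts in wild-type and 528, 634 and 494 in dKO cortex (log2 fold change -0.43, SE 0.13, adjusted *P* = 0.329, limma). *Chac1*, a glutathione-degrading enzyme gene, had 166, 108 and 135 in wild-type and 104, 72.2 and 82.3 in dKO cortex (log2 fold change -0.65, SE 0.23, adjusted *P* = 0.369, limma). *Slc7a11*, the cystine transporter gene, had 154, 50.5 and 196 in wild-type and 52.6, 60.7 and 39.4 in dKO cortex. Its genotypes overlapped (log2 fold change -1.19, SE 0.45, adjusted *P* = 0.388, limma).

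Markers of cell types were read beside these values. Over all tested features, 11.5% passed the unadjusted test (4.92% higher and 6.58% lower in dKO), and 16.4% had genotypes that did not overlap. Summed over 7 oligodendrocyte lineage markers, the normalized counts spanned 7524 to 12650 in the wild-type libraries and 4388 to 7101 in the dKO libraries, and 3 of the 7 passed the unadjusted test, all lower (*Olig1*, log2 fold change -0.84; *Pdgfra*, -0.86; *Olig2*, -0.67). Summed over 5 intermediate progenitor markers, they spanned 2737 to 4202 in the wild-type libraries and 4553 to 5420 in the dKO libraries. Of the 5, 4 passed, all higher, with *Neurog2* at 0.95. *Eomes*, which encodes TBR2, was among the 4 (log2 fold change 0.49, adjusted *P* = 0.357, limma), and its genotypes overlapped. By immunofluorescence, the paper found fewer TBR2-positive cells in dKO cortex at E18.5, the other direction. Why RNA and cell counts differ was not tested. Of 9 excitatory neuron markers, 4 passed the unadjusted test, all higher, with a list median of 0.25, and *Emx1* (log2 fold change 0.54, adjusted *P* = 0.0900, limma) did not overlap between the genotypes. All 8 endothelial markers had a negative log2 fold change, with a median of -0.21, and 2 passed, *Flt1* (-0.76) and *Kdr* (-0.66). Of 8 radial glia markers, 2 passed, *Pax6* (0.28) and *Vim* (0.23), with a median of -0.01, and the interneuron, erythroid, microglial and choroid plexus lists had 0. Only 3 of 8 choroid plexus markers and 5 of 8 erythroid markers could be tested. No marker on any of these lists had an adjusted *P* under 0.05. The sums, which rest mostly on the most abundant markers, of the excitatory neuron, radial glia, interneuron, erythroid, endothelial, microglial and choroid plexus lists overlapped between the genotypes, and no marker of any list was at 0 in all libraries. In bulk tissue, fewer cells of a type and less RNA per cell cannot be told apart, and the part of these markers in the values of *Deptor*, *Scd1*, *Chac1*, *Slc7a11* and the members was not tested.

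The features whose pattern over the 6 libraries came nearest to that of *Rps6kb1*, by the root mean square of the difference in centred log2 values over 12733 features, were *Chrnb2* (0.018), *Rab30* (0.024) and *Nmd3* (0.032). For *Mtor* they were *Bcas3* (0.024), *Samhd1* (0.036) and *Acaca* (0.038), the last of them a gene of the SREBP target list. Such likeness is common over 6 libraries, since 1056 features came within 0.1 of *Rps6kb1* and 339 within 0.1 of *Mtor*, beside standard deviations of 0.141 and 0.175 of these genes themselves.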

How the data were processed

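Cortex RNA of 3 wild-type and 3 dKO embryos was grouped by the genotype in the labels. Libraries were made with a stranded polyA kit and read as 150-base pairs. GenoSplice processed the reads for the authors, and the deposited signal of each feature is a read count divided by a DESeq2 size factor of its library. The submitters' processing notes name FastQC, Picard, SAMtools, STAR 2.7.5a, DESeq2 and the build mm10. The counting program and its strand setting are not given in the sources used here. In each library 100.0% of the values were whole multiples of the value of 1 read (tolerance 0.1), so whole reads were recovered. Reads per library ran from 31837922 to 40896541; counting errors cover counting only.

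The fit was made in R 4.3.3 by limma 3.58.1, with a trended and robust prior, for the 18970 features whose mean reached 10. Its values were log2(normalized count + 1), with Benjamini-Hochberg adjustment at 0.05. Fold changes of low features are understated on this scale. For ratios, exact permutation tests (two-sided) were used. edgeR 4.0.16 and DESeq2 1.42.0 on the recovered reads, other pseudocounts (0.1 and 10), filters and scalings, a length correction (loess, span 0.5), a replicate block and leaving out libraries were alternatives. The scripts were tested on simulated data. Lengths, transcripts and sequences came from GENCODE M21 (GRCm38).

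The members and lists were chosen with earlier results of these data known. Named were all members, the unnamed features inside *Rps6kb1* and *Mtor*, *Khdrbs1* and *Khdrbs3*, list genes with an adjusted *P* under 0.05 or with a mean of at least 50, an unadjusted *P* under 0.05 and no overlap, the highest and lowest of a list, and the 3 features most like *Rps6kb1* and *Mtor*. *Mlst8*, *Akt1s1*, *Rps6*, *Gatsl3* and some cell type markers were named outside this rule. The labels do not say that replicate numbers pair the samples, and same-numbered deviations correlated at 0.098, -0.228 and -0.079. The deviations of both libraries numbered 1 ran with transcript length at a positive rho (0.284 and 0.342). Whether libraries of the same number shared a batch was not tested.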

Additional observations from a re-analysis of the deposited data

How the results depend on the processing

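No member and no pathway gene had an adjusted *P* under 0.05 in any alternative, and the smallest adjusted *P* of a member was 0.21. Of 180 member values under the alternatives, 173 kept their direction. The exceptions were *Mtor*, at -0.01 on the log2 scale after quantile normalization, and values without 1 library, over which log2 fold changes ran from -0.07 to 0.17 for *Mtor*, -0.05 to 0.12 for *Rptor*, -0.02 to 0.15 for *Tsc2* and -0.20 to 0.00 for *Rps6kb2*. The count of members with an unadjusted *P* under 0.05, 1 as reported, was 0 after quantile normalization, 0 in limma without the trend and robust options, 2 with the length trend removed (*Tsc1* and *Eif4ebp2*; 21 pathway genes and 15.4% of all features passed there) and 0 without both libraries numbered 1. Leaving out 1 library gave 0 to 3, with 3 (*Rps6kb1*, *Tsc1* and *Eif4ebp2*) without wild-type library 2, 2 without dKO library 2, and 1, *Rictor*, without wild-type library 1. The pathway count of 14 was 8 in limma without the trend and robust options and 7 to 21 when 1 library was left out (7 without dKO library 3, 9 without wild-type library 1 or 3, 21 without wild-type library 2). In these settings without 1 library, the share of all tested features that passed moved the same way as the pathway count. It went from 11.5% as reported to 6.43% without dKO library 3 and 14.3% without wild-type library 2. It was 8.10% and 7.35% without wild-type library 1 and 3. In limma without the trend and robust options the share was 9.88%. The member count did not always follow the share, since it was 0 without dKO library 1, where 11.9% of all tested features passed. In limma without those options 1 of *Khdrbs1* and *Khdrbs3* passed the adjusted test. The number of the 6 ratios without overlap, 0 as reported, was 1 with a pseudocount of 10, 2 without both libraries numbered 1, and 1 to 3 when 1 library was left out. Over all features, DESeq2 called 202 and edgeR 16, beside 19 in limma. The causes were not tested.

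Replicate numbers were not used to pair the libraries in the main fit. With the numbers as a replicate block, 9 features passed adjustment. The unadjusted counts were 1 member (*Eif4ebp2*) and 16 pathway genes, beside 12.2% of all tested features. Of the 6 ratios, 4 moved one way in all 3 number-matched differences, for which 0.25 is the smallest exact *P*. The lowest count of a member in any library was 317 reads (*Rptor*, 5.62% counting error). The unnamed features inside *Rps6kb1* and *Mtor*, with 29 reads in all, stayed under the filter of the main fit and went untested there. With a filter at a mean of at least 1, and without a filter, 0 of them had an unadjusted *P* under 0.05 (limma).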
